A study of Homo sapiens with 20 samples.

Results

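The insulin-like growth factor (IGF) binding proteins and receptors are described here by 9 genes chosen by symbol, IGFBP2, IGFBP3, IGFBP4, IGFBP5, IGFBP6, IGFBP7, IGF1R, IGF2R and INSR, out of 57500 genes listed in each library. RNA-seq read counts came from 20 cultures of NTERT cells, an immortalized human keratinocyte line, in 4 groups of 5. The groups are unwounded and HDW cultures of WT cells, and the same of GCN2KO cells, where HDW is high-density wounding, in which pipet tips drawn across the monolayer leave many cells at a wound edge, and HDW cultures were collected 6 h later. GCN2KO cells were edited with CRISPR/Cas9 in EIF2AK4, which encodes the eIF2 kinase GCN2, and WT cells are labelled wild type and, by the study's account, carried a control guide RNA. By the study's methods the knockouts were made as a pool of edited cells with a guide to exon 2 or exon 12, without saying which served for RNA-seq, and all cultures had been moved from low-calcium growth medium with keratinocyte growth supplement to serum and high calcium before wounding, so each group is a differentiating monolayer. Nothing in the labels says that replicates were separate cell stocks, so p-values measure the spread between these cultures, which may be technical.

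IGF-I and IGF-II signal through IGF1R, a receptor tyrosine kinase related to the insulin receptor INSR, to the PI3K-AKT and RAS-MAPK pathways. The secreted binding proteins hold IGFs away from the receptor or deliver them to it, and proteases such as PAPPA release IGFs by cutting IGFBP4 and IGFBP5. IGF2R, which is also the cation-independent mannose 6-phosphate receptor, internalizes IGF-II for degradation and sorts lysosomal enzymes. In epidermis, IGF-I from dermal fibroblasts acts on keratinocytes, which carry IGF1R, and IGF-I is known to promote keratinocyte migration and proliferation.

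The libraries held 14083504 to 34611570 counts, and no 2 libraries of a group agreed within sampling noise. EIF2AK4 was at 138 to 158 CPM (read counts scaled to a common library size with TMM factors) in the 10 WT libraries and at 28.0 to 33.4 in the 10 GCN2KO libraries, with a log2 fold change of -2.28 ± 0.065 (SE) in unwounded cells. The 9 keratinocyte markers summed to 13710 to 19340 CPM, most of it KRT5, and 3 were changed and higher and 4 changed and lower in unwounded GCN2KO against WT cells by the edgeR test described below. IVL, an envelope protein of differentiating keratinocytes, had a mean of 109 CPM in unwounded WT and 385 in unwounded GCN2KO cells (155 and 604 after HDW), while the basal genes KRT14 and ITGA6 were at 2202 and 1440 CPM in unwounded WT and 1222 and 865 in unwounded GCN2KO cells. These 3 genes were picked from the list and do not stand for it. Of the 9 markers, 1 was a DE gene higher and 1 a DE gene lower, as defined below, in unwounded cells. Values of the other markers are not given here, so no shift toward differentiation is read from these. By the study's account loss of GCN2 can delay keratinocyte differentiation. The sum of the 9 markers was 13710 to 14080 CPM in WT and 14470 to 17140 in GCN2KO unwounded libraries. After HDW the sum was 15440 to 16440 CPM in WT and 18060 to 19340 in GCN2KO libraries. The median log2 fold change of the 9 markers between genotypes was 0.12 in unwounded cells. The part of these marker differences in the genotype results was not tested. Of the 8 fibroblast markers, COL1A2, COL3A1, LUM, PDGFRA, PDGFRB and THY1 were under 1 CPM in every library, and the list summed to 23.3 to 36.3 CPM. The 5 melanocyte markers summed to at most 3.49 CPM and the 3 endothelial markers to at most 0.633 CPM. The 3 leukocyte markers summed to 54.8 to 63.1 CPM in WT unwounded and 12.8 to 42.0 in the other libraries, nearly all from CD14, with PTPRC and CD3E under 1 CPM. Any part of these other cell types in the results was not tested. GCN2KO unwounded replicates 1, 3 and 5 stood apart from replicates 2 and 4. The length index is the median log2 deviation from a gene's mean over genes whose longest transcript has at least 8000 bases, minus that over genes of at most 2000 bases. It was -0.153, -0.449 and -0.391 in replicates 1, 3 and 5 and 0.164 and -0.041 in replicates 2 and 4. By this index replicate 1 lay nearer to replicate 4 than to replicates 3 and 5, so the split rests on the components. The index lay between -0.0356 and 0.0543 in WT and between 0.085 and 0.2 in GCN2KO HDW libraries. The longest transcripts of IGF1R, IGF2R and INSR have 12235, 14231 and 9463 bases, so their values are also given with an offset fitted to transcript length and, where GCN2KO unwounded libraries enter, without either set of those libraries.

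The members lie on 8 chromosomes (GRCh38, GENCODE 44). IGFBP2 (ENSG00000115457, chr2:216632828-216664436, plus strand) and IGFBP5 (ENSG00000115461, chr2:216672105-216695549, minus strand) are neighbours with 7669 bases between them. IGFBP3 (ENSG00000146674) is at chr7:45912245-45921874 on the minus strand, IGFBP4 (ENSG00000141753) at chr17:40443450-40457725 on the plus strand, and IGFBP6 (ENSG00000167779) at chr12:53097436-53102345 on the plus strand. IGFBP7 (ENSG00000163453) is at chr4:57030773-57110385 on the minus strand, where 18.3% of its exonic bases overlap IGFBP7-AS1 and POLR2B on the other strand, and since strand use in counting is not stated, its counts are uncertain to that extent. IGF1R (ENSG00000140443) is at chr15:98648539-98964530 on the plus strand, IGF2R (ENSG00000197081) at chr6:159969082-160113507 on the plus strand, and INSR (ENSG00000171105) at chr19:7112255-7294414 on the minus strand.

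Upstream sequence is shown for IGFBP2, IGFBP4, IGF1R and IGFBP6, the members that were DE genes, as defined below, between genotypes in unwounded cells. Each of the first 3 is the 250 bases before a RefSeq transcription start (GRCh38.p14), 5′ to 3′ on the gene's strand, with motif matches in capitals. IGFBP2 has 3 RefSeq starts, and the window shown is that of the start at lowest coordinate, chr2:216632578-216632827. IGFBP4 is chr17:40443200-40443449, IGF1R is chr15:98648289-98648538, and the IGFBP6 stretch is 27 bases at chr12:53097471-53097497, with its match 186 bases before the RefSeq start. That start follows the window chr12:53097417-53097666, whereas GENCODE places the IGFBP6 gene from 53097436. The IGFBP6 stretch thus lies inside the gene as GENCODE places it.
IGFBP2: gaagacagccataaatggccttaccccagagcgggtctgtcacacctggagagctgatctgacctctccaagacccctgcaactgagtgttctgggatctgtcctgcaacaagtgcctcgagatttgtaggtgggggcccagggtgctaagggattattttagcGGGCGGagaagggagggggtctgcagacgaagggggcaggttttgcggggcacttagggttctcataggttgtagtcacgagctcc
IGFBP4: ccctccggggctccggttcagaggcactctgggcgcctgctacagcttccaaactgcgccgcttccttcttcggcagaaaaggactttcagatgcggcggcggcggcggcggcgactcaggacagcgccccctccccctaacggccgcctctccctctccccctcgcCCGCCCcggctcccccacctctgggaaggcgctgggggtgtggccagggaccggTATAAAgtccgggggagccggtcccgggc
IGF1R: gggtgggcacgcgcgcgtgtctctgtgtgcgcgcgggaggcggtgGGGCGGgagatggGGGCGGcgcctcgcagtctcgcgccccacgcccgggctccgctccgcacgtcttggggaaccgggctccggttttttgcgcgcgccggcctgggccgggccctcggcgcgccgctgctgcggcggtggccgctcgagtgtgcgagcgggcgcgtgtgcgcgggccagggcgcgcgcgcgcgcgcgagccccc
IGFBP6: aatttgggaaGTAAACAgaaactggaa
Both strands were searched. The letters GGGCGG, bound by Sp1-type factors, are in at least 1 window of every member in the RefSeq table except IGFBP5, against 42.6% of all 35116 windows of that length, and overlapping matches were counted. The TATA box letters TATAAA are in the IGFBP4 window, 29 bases before the start, against 10.7% of all windows. The FOXO element letters GTAAACA are in the IGFBP6 window and in that of no other member, against 2.98% of all windows. An AP-1 site written TGANTCA was in no member window, against 6.57% of all windows. An ATF4 element written TGATGNAA was likewise in none, against 3.14% of all windows. IGFBP7 was not in that table. The shares are per window, whereas a member is counted with a match in any of its windows, so the measures differ. IGFBP2 has several windows, and that at chr2:216659317-216659566 has no match.

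In order of level per kilobase of exon in unwounded WT cells, IGFBP7 and IGFBP6 came first, at 65.1 ± 5.13 and 61.5 ± 12.3 CPM per kilobase (SD, n = 5), and their ranges overlapped. IGFBP3 followed at 23.9 ± 5.2, and then IGFBP4 at 16.0 ± 1.29, IGF1R at 13.4 ± 0.395 and IGF2R at 12.6 ± 0.659. IGFBP4 overlapped IGF1R, and IGF1R overlapped IGF2R, which was apart from INSR. INSR at 2.35 ± 0.16 and IGFBP2 at 2.08 ± 0.337 CPM per kilobase were lowest among the 8 members with usable counts, and their ranges overlapped. IGFBP5 had 0 to 2 counts in every library, under the 3 counts that a count of 0 allows, and was not tested. The order depends on the length used: per kilobase of the longest transcript, IGF2R at 19.99 was above IGFBP4 at 16.04 and IGF1R at 15.3 in unwounded WT cells, and did not overlap either.

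By length of merged exons, the order differed in each group. In WT HDW cells IGFBP6 was first at 94.6 ± 6.5 CPM per kilobase, above IGFBP7 at 61.3 ± 6.1 in every library, and IGF2R, IGFBP4 and IGF1R overlapped in turn. In GCN2KO unwounded cells IGFBP6 took place 4 at 7.59 ± 1.85, below IGFBP3 at 23.5 ± 1.81 and IGF2R at 17.3 ± 5.29, whose ranges overlapped. IGFBP6, IGF1R and IGFBP4 overlapped in turn there. In GCN2KO HDW cells no neighbours in the order overlapped, and IGFBP7 at 49.9 ± 8.12, IGFBP3 at 38.1 ± 3.15 and IGF2R at 20.6 ± 0.303 led. By the longest transcript, IGFBP7 and IGFBP3 overlapped there, at 67.6 and 66.1 CPM per kilobase, as did IGF1R and IGFBP6 at 10.2 and 7.78. Summed over the 6 binding proteins, the level was 169 ± 19.4 CPM per kilobase in unwounded WT cells and 212 ± 8.34 after HDW. In GCN2KO cells it was 96.7 ± 12.6 unwounded and 98.7 ± 10.6 after HDW. IGFBP6 made up 33.8% to 46.4% of that sum in WT libraries and 5.3% to 10.1% in GCN2KO libraries. IGFBP7 made up 25.4% to 41.5% in WT and 47.8% to 68.8% in GCN2KO libraries. By the longest transcript these shares were 29.3% to 40.2% and 4.06% to 8.13% for IGFBP6, and 26.01% to 43.7% and 43.4% to 66.3% for IGFBP7, whose ranges then overlapped.

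**Figure D1:**
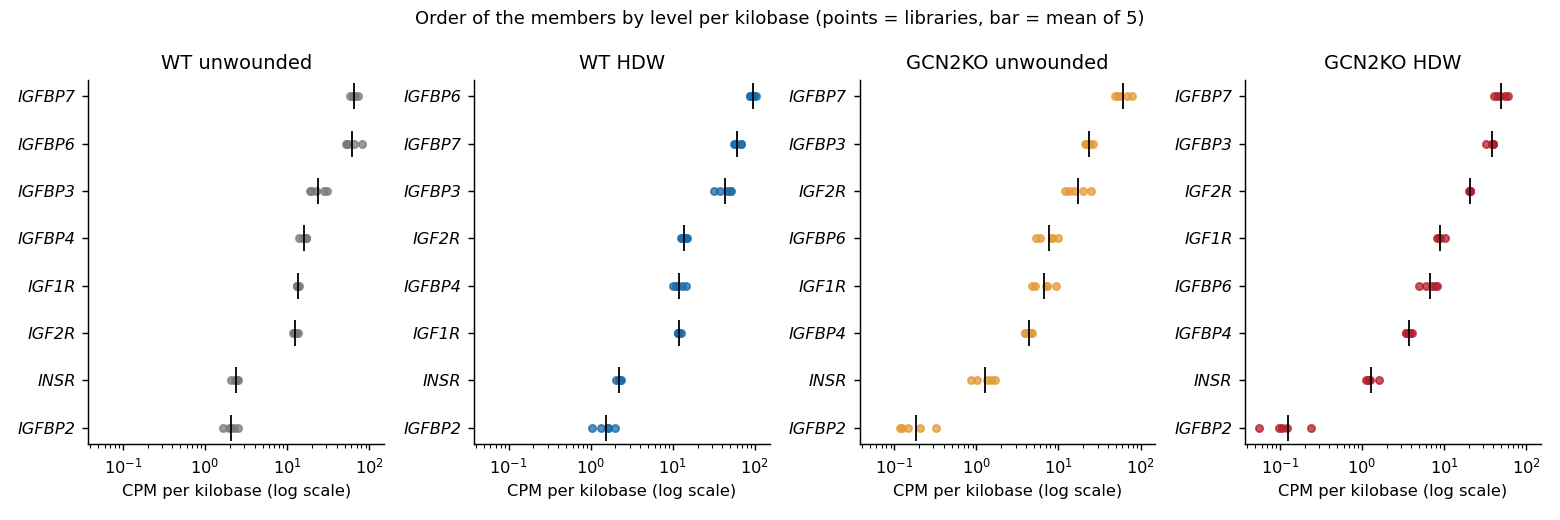
Level per kilobase of merged exons (CPM per kilobase, log axis) of the 8 members with usable counts, ordered by mean in each group, with points for the 5 libraries and a bar for their mean. IGFBP6 moves from the top 2 places in WT to places 4 and 5 in GCN2KO cells, and IGFBP2 is last in each group.

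The first question was how loss of GCN2 relates to these genes in unwounded cells. Of the 8 members tested, 5 were lower and 1 higher in GCN2KO cells. Changed means here that edgeR's quasi-likelihood test gave a p, adjusted by Benjamini-Hochberg over all genes, of 0.05 or less. Over all 15348 genes tested, 33.1% were changed and lower and 33.4% changed and higher. DE genes are changed genes whose log2 fold change also has a size of 1 or more, and by that rule 4 members were lower and 0 higher, against 8.22% of all genes lower and 8.21% higher, and DESeq2 gave 3 lower and 0 higher. The median log2 fold change was -0.94 over the members and 0.00424 over all genes tested. Because RNA was taken from whole cultures, fewer cells of a kind and less RNA per cell cannot be told apart in any of these values.

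IGFBP2, a secreted IGF carrier, differed most in unwounded cells. It was at 9.68, 9.19, 12.01, 7.72 and 10.6 CPM in WT replicates 1 to 5 and at 1.54, 0.587, 0.549, 0.965 and 0.705 in GCN2KO. After HDW the values were 9.44, 4.97, 6.31, 7.59 and 7.64 CPM in WT and 0.261, 0.582, 0.496, 0.465 and 1.13 in GCN2KO. Every WT value lay above every GCN2KO value, and the GCN2KO libraries rest on 8 to 39 counts. Relative to WT, GCN2KO cells had a log2 fold change of -3.50 ± 0.206 (SE, 11.3-fold lower, edgeR adjusted p = 6.04e-10) in unwounded cells and -3.61 ± 0.262 (12.2-fold lower, adjusted p = 3.08e-08) after HDW. GCN2KO unwounded replicate 1 and GCN2KO HDW replicate 5 had the highest IGFBP2 of their groups, and both were also nearest to WT on the first principal component, at 37.5 and 36.1 against 50.6 to 56.7 in the other GCN2KO libraries.

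IGFBP6, which binds IGF-II in preference to IGF-I, was at 109, 88.8, 72.5, 69.1 and 74.4 CPM in unwounded WT and at 11.2, 7.198, 8.12, 13.2 and 11.4 in unwounded GCN2KO cells. HDW values were 139, 119, 129, 131 and 118 CPM in WT and 9.66, 10.5, 8.02, 6.63 and 10.99 in GCN2KO cells. No GCN2KO library came near the lowest WT library, at 69.1 CPM. The fold change of GCN2KO against WT on the log2 scale was -3.00 ± 0.16 (7.99-fold lower, edgeR adjusted p = 2.03e-10) unwounded and -3.77 ± 0.101 (13.7-fold lower, adjusted p = 7.17e-12) after HDW.

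IGFBP4, generally an inhibitor of IGF action until PAPPA cuts it, was at 37.05, 37.5, 30.8, 37.1 and 34.5 CPM in WT unwounded and 9.53, 10.6, 8.695, 10.3 and 8.63 in GCN2KO unwounded cells. It was at 24.9, 32.04, 28.8, 22.3 and 24.04 CPM in WT HDW and 8.88, 8.21, 8.55, 7.502 and 7.66 in GCN2KO HDW cells. All 10 GCN2KO values, at most 10.6 CPM, were below all WT values, at least 22.3 CPM. GCN2KO cells differed from WT by -1.89 ± 0.0851 on the log2 scale (3.7-fold lower, edgeR adjusted p = 3.91e-11) unwounded and by -1.69 ± 0.0966 (3.22-fold lower, adjusted p = 3.68e-09) after HDW.

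IGFBP7, a related secreted protein of low IGF affinity, differed little. It was at 139.7, 130.5, 114, 122 and 123 CPM in WT unwounded and 103, 94.9, 130.5, 109.6 and 152 in GCN2KO unwounded cells, with overlapping ranges. After HDW it was at 109, 129.6, 132, 107 and 114 CPM in WT and 118, 106, 93.5, 86.01 and 78.5 in GCN2KO cells, again with overlap. The unwounded log2 difference was -0.09 (95% interval -0.31 to 0.14, edgeR adjusted p = 0.495), and that after HDW was -0.29 ± 0.0982 (adjusted p = 0.0153). Without GCN2KO unwounded replicates 1, 3 and 5 the unwounded difference was -0.28 (adjusted p = 0.00474), and without replicates 2 and 4 it was 0.04 (adjusted p = 0.761).

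IGFBP3, the main IGF carrier of serum, was not called between genotypes. Unwounded, it was at 129.8, 89.1, 138, 86.03 and 103 CPM in WT and 97.4, 103, 111, 119 and 106 in GCN2KO cells, and the log2 difference was -0.02 (95% interval -0.27 to 0.23, edgeR adjusted p = 0.87). After HDW it was at 226, 145, 172, 232 and 209 CPM in WT and 180.1, 181, 177, 183 and 148 in GCN2KO cells. That difference was -0.18 (95% interval -0.42 to 0.06, adjusted p = 0.161), and without WT HDW replicate 2, the lowest of its group, it was -0.27 (adjusted p = 0.0102).

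**Figure D2:**
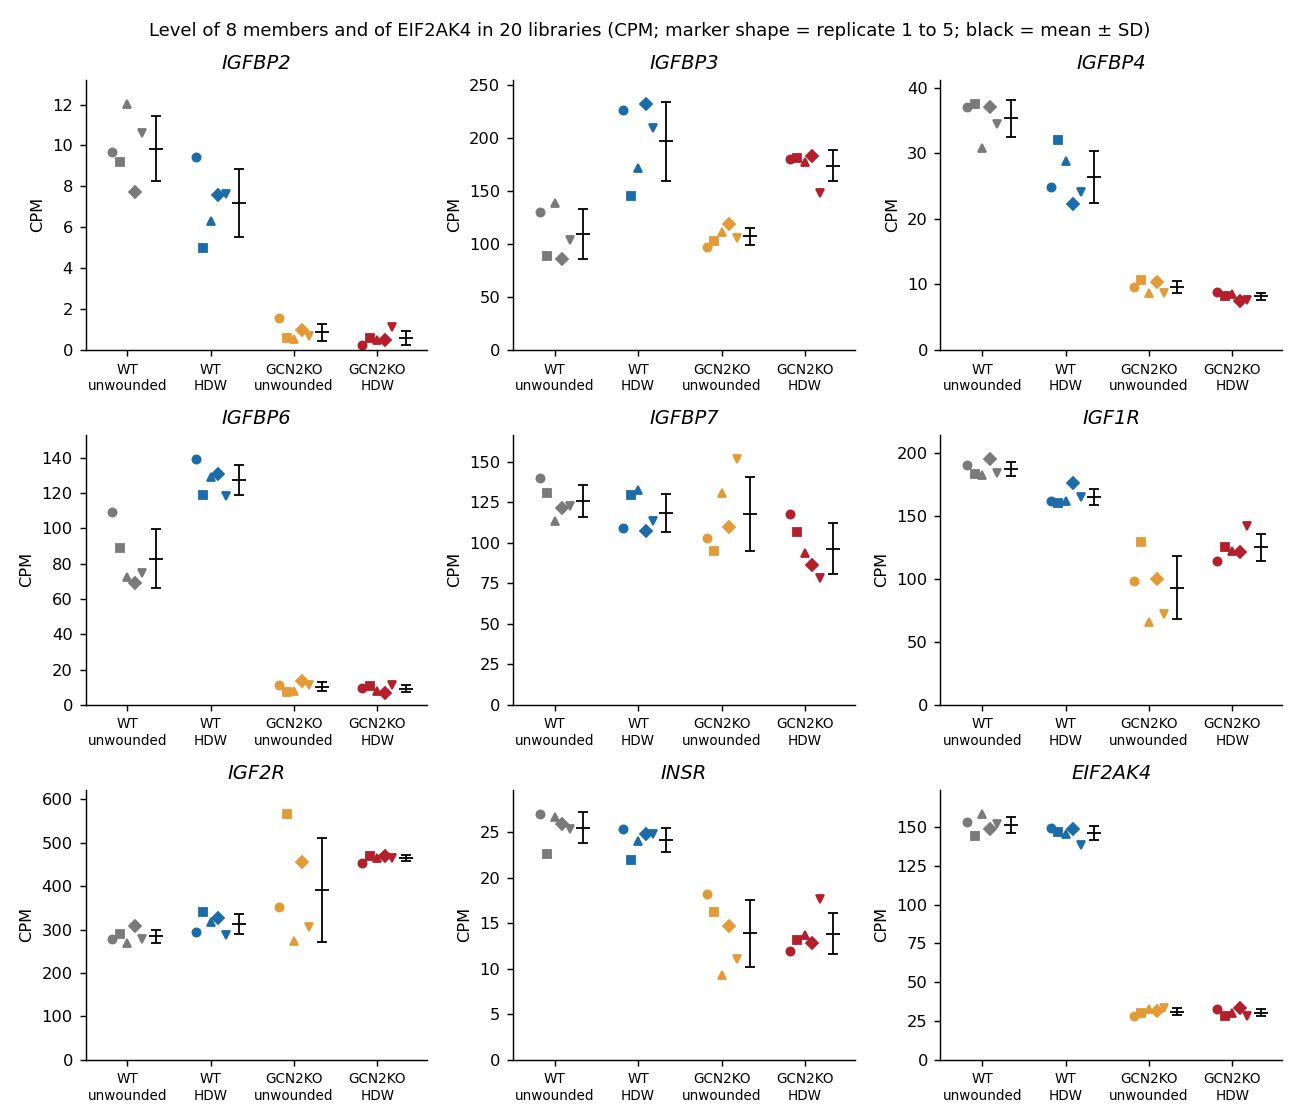
Level of 8 members and of EIF2AK4, the edited gene, in CPM on linear axes from 0, with 1 point per library (marker shape for replicate 1 to 5) and the mean and SD of each group of 5 in black. IGFBP2, IGFBP4 and IGFBP6 separate WT from GCN2KO in both conditions, IGFBP3 separates HDW from unwounded in both genotypes, and the IGF2R level of GCN2KO unwounded libraries runs from 274 to 566 CPM.

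Of the receptors, IGF1R was lower in GCN2KO cells. It was at 191, 184, 182, 195 and 184 CPM in WT unwounded and 98.2, 129.5, 66.2, 99.9 and 72.5 in GCN2KO unwounded cells. After HDW it was at 162, 161, 162, 176 and 165 CPM in WT and 114, 126, 122, 121 and 142 in GCN2KO cells, and WT and GCN2KO did not overlap in either condition. The log2 difference was -1.01 ± 0.137 (2.01-fold lower, edgeR adjusted p = 7.46e-06) unwounded and -0.40 ± 0.0541 (1.32-fold lower, adjusted p = 1.35e-05) after HDW. The unwounded value lies at the fold threshold of a DE gene and was -0.93 with the length-dependent offset, -0.70 without GCN2KO replicates 1, 3 and 5 and -1.25 without replicates 2 and 4. The value after HDW was -0.50 with the offset.

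INSR, the insulin receptor, which also forms hybrids with IGF1R, was at 26.96, 22.6, 26.6, 25.9 and 25.3 CPM in WT unwounded and 18.2, 16.3, 9.34, 14.7 and 11.01 in GCN2KO unwounded cells. It was at 25.3, 21.9, 24.04, 24.7 and 24.8 CPM in WT HDW and 11.9, 13.1, 13.7, 12.8 and 17.7 in GCN2KO HDW cells, below every WT library. The log2 fold change was -0.88 ± 0.142 (edgeR adjusted p = 4.52e-05) unwounded and -0.80 ± 0.0888 (adjusted p = 1.84e-06) after HDW. The INSR difference was -0.81 unwounded and -0.86 after HDW with the length-dependent offset, and unwounded it was -0.72 without GCN2KO replicates 1, 3 and 5 and -0.998 without replicates 2 and 4.

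IGF2R was the member with higher levels in GCN2KO cells. After HDW it was at 294, 340.4, 317, 326 and 287 CPM in WT and 454, 470.4, 465, 470.4 and 464 in GCN2KO cells, all above WT, with a log2 fold change of 0.57 ± 0.0481 (edgeR adjusted p = 1.25e-07). Unwounded it was at 278, 290.2, 269.8, 308 and 277 CPM in WT and 353, 566, 274, 456 and 306 in GCN2KO cells, and GCN2KO replicates 3 and 5 lay inside the WT range. The unwounded log2 fold change was 0.46 ± 0.151 (adjusted p = 0.0128). It was 0.13 (adjusted p = 0.155) without replicates 2 and 4, 0.85 (adjusted p = 6.13e-08) without replicates 1, 3 and 5, and 0.53 (adjusted p = 7.95e-05) with the length-dependent offset, which gave 0.45 after HDW.

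The IGF1R to IGF2R ratio, from levels per kilobase in the same library, varied less than either gene among GCN2KO unwounded libraries. It was 0.451, 0.371, 0.392, 0.356 and 0.384 in their replicates 1 to 5. The ratio ranged from 1.03 to 1.12 in WT cells without wounding, 0.765 to 0.934 in WT HDW and 0.408 to 0.498 in GCN2KO HDW libraries, so it was below 0.5 in every GCN2KO library and above 0.75 in every WT library. With the longest transcript's length the ratio was 0.737 to 0.8003 in WT unwounded, 0.549 to 0.67 in WT HDW, 0.255 to 0.324 in GCN2KO unwounded and 0.293 to 0.357 in GCN2KO HDW libraries, so that only the separation of the genotypes, and not a level of IGF1R above IGF2R, held for both lengths. The IGF1R to INSR ratio overlapped between genotypes in unwounded cells, at 5.33 to 6.32 in WT and 4.19 to 6.19 in GCN2KO, and was 4.96 to 5.69 in WT HDW and 6.27 to 7.45 in GCN2KO HDW libraries. These ratios are descriptions with no test.

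**Figure D3:**
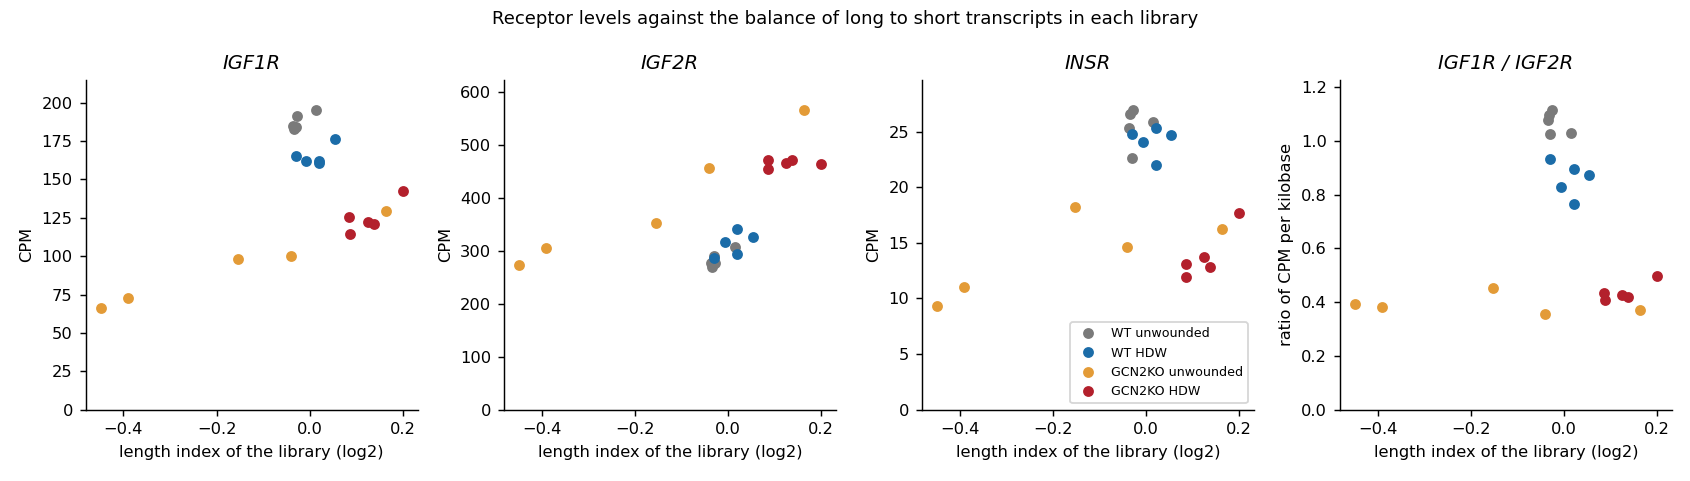
Level of IGF1R, IGF2R and INSR (CPM) and the ratio of IGF1R to IGF2R (CPM per kilobase) against the length index of each library (log2), 1 point per library, coloured by group. Among GCN2KO unwounded libraries the IGF1R and IGF2R levels are low where the index is low, while the IGF1R to IGF2R ratio stays between 0.356 and 0.451. INSR does not follow the index in the same order, and is highest in replicate 1, at 18.2 CPM and an index of -0.153.

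After HDW, 6 of 8 members were changed and lower and 1 was changed and higher in GCN2KO against WT cells, with 35.8% and 35.9% of 15855 genes tested doing so. The DE genes were 3 lower members, IGFBP2, IGFBP4 and IGFBP6, and 0 higher, against 7.83% and 7.1% of all genes. The median log2 fold change was -0.60 over the members and 0.00197 over all genes. The GCN2KO against WT comparisons and the HDW comparisons share samples in pairs, and each is given by its own values.

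The second question was what HDW did in each genotype. In WT cells 3 members were changed and higher and 3 changed and lower after HDW, against 26.1% and 25.2% of 15348 genes tested, and 0 members were DE genes under edgeR and DESeq2, against 2.62% of genes higher and 1.55% lower. IGFBP3 rose by 0.85 ± 0.142 on the log2 scale (1.8-fold, edgeR adjusted p = 1.37e-04), and the lowest HDW value, 144.8 CPM, was above the highest unwounded value, 138 CPM. IGFBP6 rose by 0.63 ± 0.1 (1.55-fold, adjusted p = 8.7e-05), with no overlap. IGFBP4 changed by -0.42 ± 0.087 (adjusted p = 8.93e-04), with overlapping ranges, and IGF1R by -0.19 ± 0.0353 (adjusted p = 4.14e-04), with none. Smaller calls were IGFBP2 at -0.45 ± 0.148 (adjusted p = 0.0183) and IGF2R at 0.13 ± 0.0502 (adjusted p = 0.0361). The IGFBP2 call was lost without WT unwounded replicate 3 or 5 (adjusted p = 0.0586 and 0.0502), and the IGF2R call without any 1 of WT unwounded replicates 1, 3 and 5 and WT HDW replicates 2, 3 and 4 (adjusted p up to 0.0967). With all 20 samples in one fit the calls of IGF1R (adjusted p = 0.21), IGF2R (adjusted p = 0.409) and IGFBP2 (adjusted p = 0.0525) were lost, and that of IGF2R also with the length-dependent offset (0.10, adjusted p = 0.0643), with thinning (adjusted p = 0.0638) and with library size alone (adjusted p = 0.143). IGFBP7 at -0.09 (95% interval -0.23 to 0.06) and INSR at -0.08 (95% interval -0.19 to 0.03) were not called.

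In GCN2KO cells 2 members were changed and higher and 0 changed and lower after HDW by edgeR, as by DESeq2, against 11.9% and 10.8% of 15791 genes tested. Before adjustment 2 were lower at the 0.05 level, IGFBP4 and IGFBP7. DE genes were 0 members by both tools, against 0.475% of genes higher and 0.196% lower. IGFBP3 rose by 0.71 ± 0.0752 (1.63-fold, edgeR adjusted p = 1.12e-04), and the lowest HDW value, 148 CPM in replicate 5, exceeded the highest unwounded value of 119 CPM. It rose by 0.65 (adjusted p = 0.00654) without GCN2KO unwounded replicates 1, 3 and 5 and by 0.74 (adjusted p = 8.57e-05) without replicates 2 and 4. IGF1R was called at 0.44 ± 0.147 (adjusted p = 0.0455) with overlapping ranges, and that call was lost in 8 of the 10 fits that leave out 1 library, including each HDW library and unwounded replicates 1, 3 and 5 (adjusted p up to 0.114). It was 0.13 (adjusted p = 0.536) without unwounded replicates 1, 3 and 5 and 0.68 (adjusted p = 0.00101) without replicates 2 and 4. With the length-dependent offset it was 0.23 (adjusted p = 0.0825), and the call was also lost with the replicate block (adjusted p = 0.0529) and with thinning (adjusted p = 0.0562).

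IGFBP6 in GCN2KO cells differed by -0.15 after HDW (95% interval -0.50 to 0.21, edgeR adjusted p = 0.548), IGFBP4 by -0.21 (-0.40 to -0.02, adjusted p = 0.0996) and IGFBP2 by -0.55 (-1.32 to 0.23, adjusted p = 0.284). IGFBP7 differed by -0.28 (95% interval -0.55 to -0.01, adjusted p = 0.123), IGF2R by 0.26 (-0.07 to 0.59, adjusted p = 0.235) and INSR by 0.01 (-0.34 to 0.37, adjusted p = 0.958). For IGF2R the value was 0.59 (adjusted p = 2e-04) without GCN2KO unwounded replicates 2 and 4 and -0.13 (adjusted p = 0.379) without replicates 1, 3 and 5, so its direction depends on those libraries, and it was 0.43 (adjusted p = 0.016) without replicate 2 alone. With the length-dependent offset IGF2R was at 0.04 (adjusted p = 0.807) and INSR at -0.15 (adjusted p = 0.435). For IGFBP7 it was -0.41 (adjusted p = 0.0372) without replicates 2 and 4 and -0.08 (adjusted p = 0.811) without the others.

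The difference between genotypes in the response to HDW was tested as an interaction over all 20 libraries. IGFBP6 was changed and lower, at -0.78 ± 0.199 (edgeR adjusted p = 0.00584): it rose in WT and was not called in GCN2KO cells. IGF1R was changed and higher, at 0.61 ± 0.159 (adjusted p = 0.00666), and was 0.30 (adjusted p = 0.0459) without GCN2KO unwounded replicates 1, 3 and 5 0.85 (adjusted p = 1.45e-05) without replicates 2 and 4 and 0.45 (adjusted p = 0.0027) with the offset. These calls are 1 lower and 1 higher of 8 members, against 12.5% and 11.2% of 16536 genes tested. By edgeR and DESeq2 0 members were DE genes, against 2.15% of genes lower and 1.16% higher. For IGFBP3, which was called in both genotypes, the interaction was -0.15 (95% interval -0.51 to 0.21, adjusted p = 0.566). For IGFBP2 the interval ran from -0.90 to 0.69, for IGFBP4 from -0.06 to 0.47, for IGFBP7 from -0.53 to 0.12 and for INSR from -0.28 to 0.46. For IGF2R it ran from -0.24 to 0.47, and its value was 0.44 (adjusted p = 8.44e-04) without GCN2KO unwounded replicates 2 and 4 -0.29 (adjusted p = 0.0306) without replicates 1, 3 and 5 and -0.07 (adjusted p = 0.716) with the offset.

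**Figure D4:**
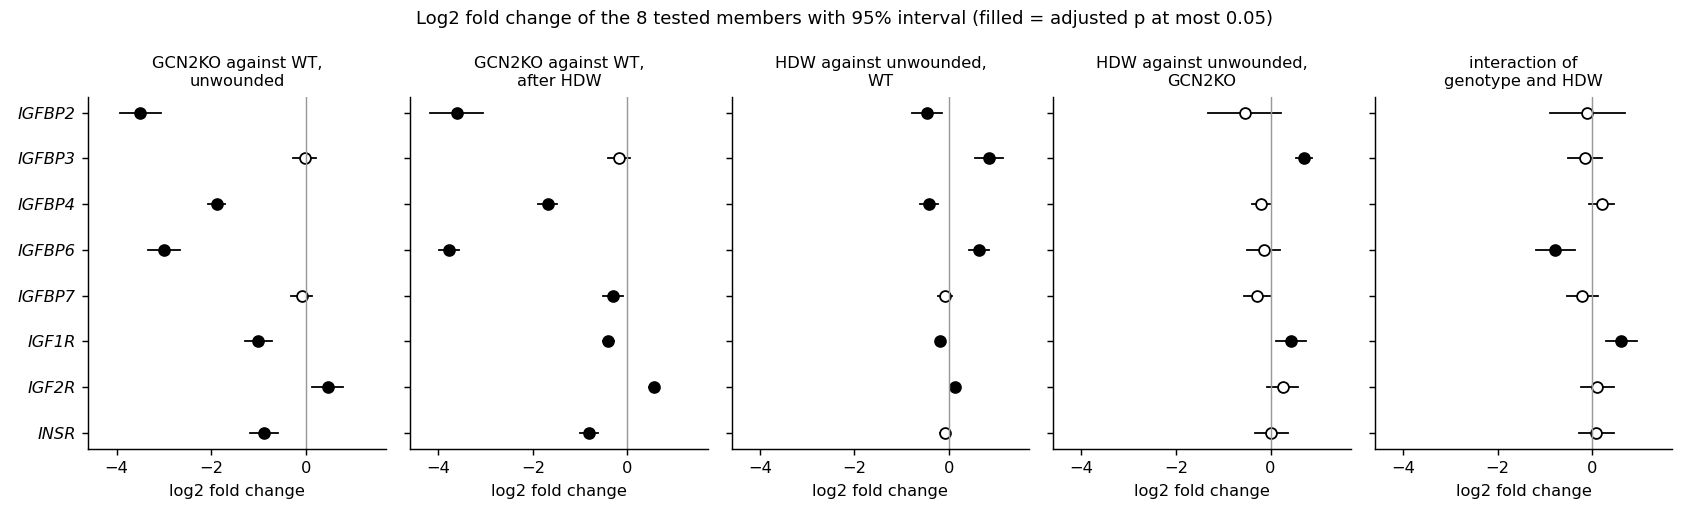
Log2 fold change of the 8 tested members in the 4 pairwise comparisons and the interaction, with 95% intervals and filled points at an adjusted p of at most 0.05. The GCN2KO against WT values reach -3.77 for IGFBP6, while every HDW value lies between -0.55 and 0.85.

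RNA of the ligands of these receptors was at or near 0 in the cells. The cultures were in medium with serum, and ligand protein from the medium was not measured. IGF1 and INS had 0 counts in all 20 libraries, each of which allows up to 3 counts, but 82.5% of IGF1 and 37.5% of INS exonic bases overlap other genes, and how reads there were counted is not stated. IGF2 had 2 to 16 counts per library. IGF2 after HDW differed by 0.24 on the log2 scale between genotypes (95% interval -0.39 to 0.88, edgeR adjusted p = 0.471), with 44.4% of its exonic bases shared with other genes. Of other binding partners, IGFBP1 had 2 counts in 1 library and 0 in the rest, and IGFALS, the subunit that joins IGFBP3 in serum, had at most 3 counts. IGFBPL1, an IGFBP-like secreted protein, had 0 or 1 count in each WT library and 4 to 11 counts in each GCN2KO library, too few for the filter of the test.

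The proteases that release IGFs, and their inhibitors, held the largest changes of the pathway lists. PAPPA, the metalloprotease that cuts IGFBP4, was at 3.18, 5.71, 4.33, 3.88 and 3.96 CPM in WT unwounded and 0.554, 0.693, 0.366, 0.643 and 0.499 in GCN2KO unwounded cells. It was at 18.9, 12.6, 15.3, 21.5 and 14.8 CPM in WT HDW and 1.51, 1.51, 0.875, 1.05 and 1.199 in GCN2KO HDW cells, so that the groups took 4 separate ranges. Relative to WT, GCN2KO cells differed by -2.94 ± 0.195 (edgeR adjusted p = 2.13e-09) unwounded and -3.73 ± 0.178 (adjusted p = 8.36e-10) after HDW. With HDW it rose by 1.98 ± 0.154 in WT (adjusted p = 5.77e-08) and by 1.21 ± 0.22 in GCN2KO cells (adjusted p = 0.00284), from 12 to 22 counts per unwounded library, and by 0.91 (adjusted p = 0.119) without GCN2KO unwounded replicates 1, 3 and 5. Of the exonic bases of PAPPA, 21.1% overlap PAPPA-AS1 on the other strand, so its counts are uncertain to that extent.

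STC2, a secreted inhibitor of PAPPA, was at 47.97, 68.3, 45.7, 73.8 and 58.9 CPM in WT unwounded and 172, 259, 221, 194 and 195 in WT HDW cells. In GCN2KO cells it was at 374, 496, 362, 498 and 368 CPM unwounded and 441, 492, 463, 441 and 466 after HDW, above all WT libraries. It was higher in GCN2KO than WT by 2.83 ± 0.142 on the log2 scale (edgeR adjusted p = 1.05e-10) unwounded and 1.14 ± 0.087 (adjusted p = 4.79e-08) after HDW. HDW raised it by 1.81 ± 0.128 in WT cells (adjusted p = 2.02e-08), and the interaction was -1.68 ± 0.173 (adjusted p = 2.09e-07). PAPPA and STC2 thus differed between genotypes in opposite directions.

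STC1, a related inhibitor, had 3 to 32 counts per library. HDW changed it by -2.22 ± 0.394 in WT cells (edgeR adjusted p = 2.25e-04), GCN2KO exceeded WT after HDW by 1.33 ± 0.378 (adjusted p = 0.0061), and the interaction was 1.95 ± 0.492 (adjusted p = 0.00542), or 1.77 (adjusted p = 0.107) with counts thinned to the smallest library. PAPPA2, with 12 to 242 counts per library, was lower in GCN2KO cells after HDW by 1.48 on the log2 scale (log2 fold change -1.48 ± 0.355, adjusted p = 0.00182). HTRA1, a secreted serine protease, was lower in GCN2KO cells at -1.15 unwounded and -1.13 after HDW. ADAM9, a membrane metalloprotease reported to cut IGFBP5, was higher at 1.18 and 1.03.

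Of the 60 genes in the pathway lists, 50 were tested in unwounded GCN2KO against WT cells. Of these 11 were changed and higher and 21 changed and lower, against 33.4% and 33.1% of all genes. Among them 3 were DE genes higher and 7 lower, against 8.21% and 8.22% of all genes, and the median log2 fold change was -0.06. After HDW 20 of 51 were changed and higher and 21 changed and lower, against 35.9% and 35.8% of all genes, with 4 DE genes higher and 7 lower, against 7.1% and 7.83%. In receptor processing and turnover, FURIN, the convertase that cuts the IGF1R and INSR precursors, was at -1.21 ± 0.0951 unwounded and -1.35 ± 0.0828 after HDW (edgeR adjusted p = 1.55e-08 and 6.81e-09). ARRB1, a beta-arrestin, was at 1.30 and 1.31 on 13 to 78 counts per library, with 25.8% of its exonic bases shared with other genes.

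Among adaptors and phosphatases, GRB14, an inhibitor of INSR, was at -1.40 and -1.39 on 2 to 41 counts per library, and 2 of 10 tested genes were changed and higher and 5 changed and lower in unwounded cells, against 33.4% and 33.1% of all genes. In the PI3K-AKT-mTOR-FOXO list 2 of 22 were changed and higher and 9 changed and lower, against the same shares. AKT1, a kinase downstream of PI3K, was at -1.08 ± 0.0824 (edgeR adjusted p = 1.04e-08) unwounded and -1.11 ± 0.0706 (adjusted p = 9.14e-09) after HDW. PIK3R2, a PI3K regulatory subunit, was at -1.19 and -1.04, with 76.4% of its exonic bases shared with another gene on the same strand. FOXO1, a transcription factor that AKT keeps out of the nucleus, was at -1.04 unwounded and -0.72 after HDW. Its unwounded value lies at the fold threshold of a DE gene. It was -0.98 with the length-dependent offset and -0.89 without GCN2KO unwounded replicates 1, 3 and 5. Of the exonic bases of FOXO1, 22.7% are shared with another gene on the same strand. Of the 7 genes of mannose 6-phosphate sorting, which share the IGF2R route, 1 was changed and higher and 3 changed and lower in unwounded cells, again against 33.4% and 33.1% of all genes, and none was a DE gene.

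For HDW the lists were counted in the same way. In WT cells 17 of 50 were changed and higher and 15 changed and lower after HDW, against 26.1% and 25.2% of all genes, with PAPPA and STC2 the higher DE genes and STC1 the lower. In GCN2KO cells 13 of 51 were changed and higher and 1 changed and lower, against 11.9% and 10.8%, with PAPPA the DE gene. By the interaction 10 of 51 were changed and higher and 3 changed and lower, against 11.2% and 12.5%.

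**Figure D5:**
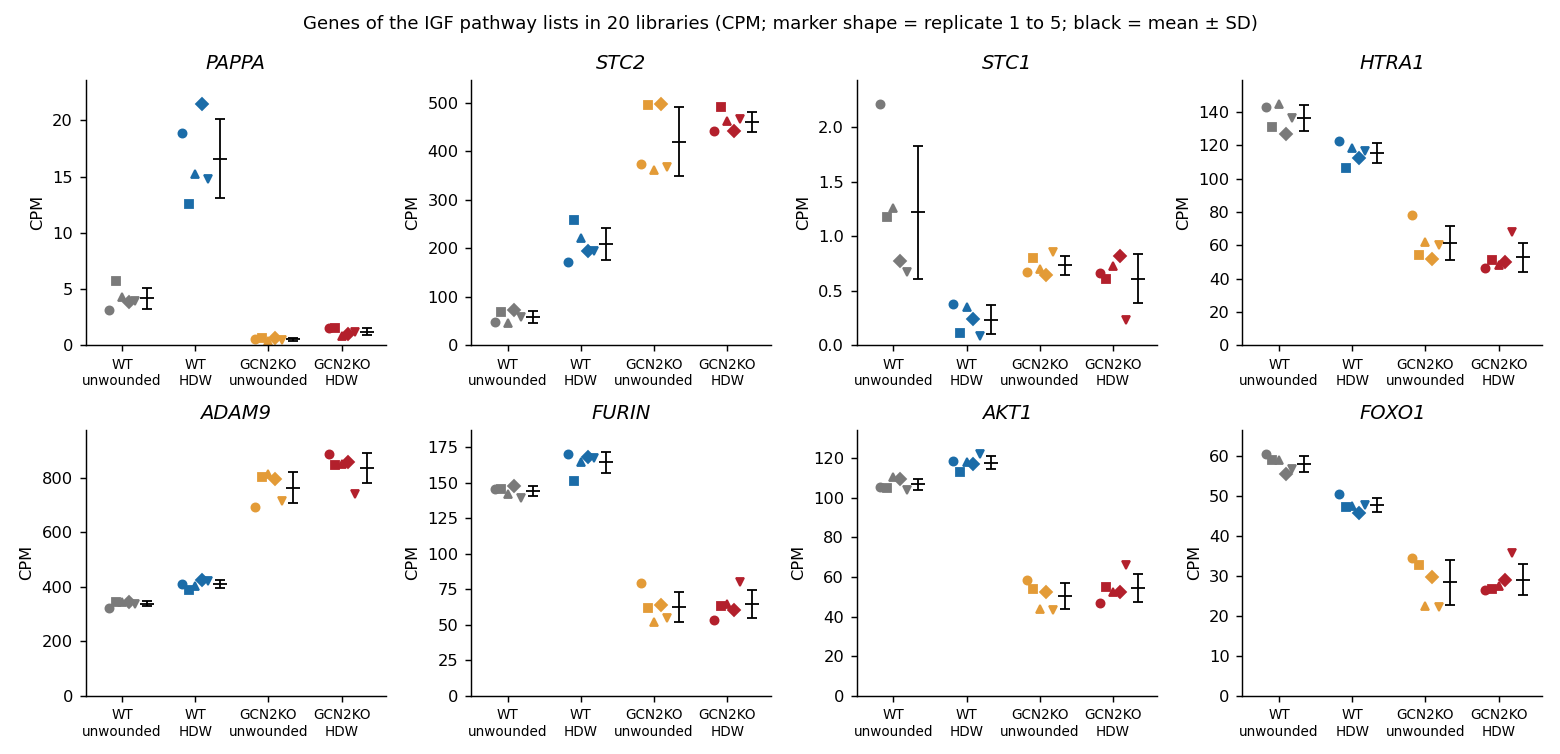
Level (CPM, linear axes from 0) of PAPPA, STC2, STC1, HTRA1, ADAM9, FURIN, AKT1 and FOXO1 in the 20 libraries, with marker shape for replicate and the mean and SD of each group in black. PAPPA and STC2 rise with HDW in WT cells, while across genotypes PAPPA is lower and STC2 higher in GCN2KO cells.

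Neighbouring genes on the chromosomes did not share one direction with the members. TOP2A, 25554 bases below IGFBP4, was at -2.18 in unwounded GCN2KO against WT cells and -2.12 after HDW on the log2 scale, and ENSG00000279806, on the other side of IGFBP4, at -1.12 and -0.33. SPRYD3 and HIGD1AP1, on either side of IGFBP6, were at 0.89 and 0.75 unwounded, and RPL37A, below IGFBP2, was at -0.01 (edgeR adjusted p = 0.914). TNS1, above IGFBP5, was not tested there. TNS3 and GTF2IP13, around IGFBP3, were at -2.56 and 0.73, and NOA1 and ADGRL3, around IGFBP7, at -0.55 and 1.00. Around IGF1R, ARRDC4 was at -0.15 and SYNM at 1.82, around INSR ZNF557 was at 0.00473 and ARHGEF18 at 0.12, and MRPL18 below IGF2R was at 0.55. Some of these genes, the nearest tested, lie far from the member. TNS3 is 1353280 bases from IGFBP3, ADGRL3 4089941 from IGFBP7 and ARRDC4 674706 from IGF1R. Over all other tested genes of each member's chromosome the median unwounded log2 fold change lay between -0.0725 and 0.0617.

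For the 4 members that were DE genes, the genes with the most similar pattern over the 20 libraries were found by Pearson's r of log2 CPM, as a description in which all points share the 4 groups. For IGFBP2 they were SEC14L2 (r = 0.994) and VILL (r = 0.994), and for IGFBP4 FBXO2 (r = 0.987) and MMP14 (r = 0.987). For IGFBP6 they were VPS51 (r = 0.994) and NOP53 (r = 0.993), and for IGF1R MLXIP (r = 0.989) and HELZ (r = 0.987).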

How the data were processed

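RNA of 20 cultures was sequenced. The authors trimmed reads with Trimmomatic, aligned them to GRCh38 with STAR and counted them per gene with featureCounts, and the deposited values are raw counts with no normalization or gene filter. Strandedness and the annotation release are not given in the sources used here. Symbols and positions came from GENCODE 44 (56410 of 57500 IDs matched). Each pair of groups was compared on its 10 samples, and the interaction on all 20, with edgeR 4.0.16 in R 4.3.3 (TMM, filterByExpr with minimum count 10, quasi-likelihood test, Benjamini-Hochberg adjustment over all genes tested). SE is the size of the log2 fold change divided by the square root of F. CPM uses TMM sizes over the 20 samples, and levels between genes are CPM per kilobase of merged exons. The pipeline was tested on simulated data. Named genes are the members, EIF2AK4, DE genes and ligands of lists of IGF pathway genes, the nearest tested neighbours, and the 2 most similar genes of each DE member. Alternatives were single samples left out, thinning, a replicate block, one fit of all samples, a filter at a mean of 50 counts or none, library size alone, and DESeq2 1.42.0 or its size factors. A length-dependent offset and the removal of 2 sets of GCN2KO unwounded libraries were chosen after seeing the data. The members and lists were chosen with earlier results of these data known.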

Additional observations from a re-analysis of the deposited data

Results flagged for a closer look

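Among 32 sets of 5 libraries (8 members in 4 groups), 1 had a library far from the others by Dixon's test, and chance gives about 1 in 20. IGFBP3 in GCN2KO HDW replicate 5 was the lowest of its group, at 148 CPM against 177 to 183 CPM in the other 4 libraries. The response to HDW differed between genotypes, by the interaction test, for 2 members. These were 1 lower and 1 higher of 8, against 12.5% and 11.2% of all 16536 genes tested, so their number is near that of all genes. IGFBP6 responded less in GCN2KO than in WT cells, by -0.78 on the log2 scale. IGF1R changed by -0.19 in WT and by 0.44 in GCN2KO cells, so its interaction of 0.61 is between changes of opposite sign. The GCN2KO call of IGF1R was lost in 8 of 10 fits that leave out 1 library. Without GCN2KO unwounded replicates 1, 3 and 5 its interaction was 0.30 (edgeR adjusted p = 0.0459). For the pathway genes STC2 and STC1 the interactions were -1.68 and 1.95 (edgeR).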

How the results depend on the processing

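IGFBP2, IGFBP4, IGFBP6, IGF1R and INSR were lower in GCN2KO cells in both conditions at an adjusted p of at most 0.05 under every alternative run. Members changed were 5 to 7 in unwounded GCN2KO against WT over the alternatives (6 reported) and 7 or 8 after HDW (7 reported). With single samples left out they were 6 in every fit and 7 to 8, with 3 to 5 and 3 DE genes. For HDW in WT, 6 members became 3 with all 20 samples in one fit (IGFBP2, IGF1R and IGF2R lost) and 4 to 6 with single samples left out. For HDW in GCN2KO, 2 became 1 with the replicate block, with thinning, with the length-dependent offset and without GCN2KO unwounded replicates 1, 3 and 5, 4 without replicates 2 and 4, and 1 to 3 with single samples left out. Interaction calls stayed at 2 with single samples left out. Over all genes tested, the main fits called 33.4% higher and 33.1% lower in unwounded GCN2KO against WT, and 35.9% and 35.8% after HDW. For HDW they called 26.1% and 25.2% in WT and 11.9% and 10.8% in GCN2KO, and for the interaction 11.2% and 12.5%. DE genes between genotypes were 8.21% and 8.22% unwounded and 7.1% and 7.83% after HDW. DE members in unwounded cells were 3 under DESeq2, its size factors, thinning and the offset, and without GCN2KO unwounded replicates 1, 3 and 5, where IGF1R was at -0.70. Directions reversed for values that were not called. IGFBP3, unwounded between genotypes, was 0.0371 without GCN2KO unwounded replicates 1, 3 and 5 and -0.10 to 0.0706 with single samples left out. IGFBP7 there was 0.0377 without replicates 2 and 4. After HDW in GCN2KO, INSR was -0.00168 under DESeq2, -0.15 with the offset, -0.15 without replicates 1, 3 and 5 and -0.11 to 0.13 with single samples left out, and IGF2R was -0.13 without replicates 1, 3 and 5. For the interaction, IGFBP2 was -0.49 to 0.17 and INSR -0.0252 to 0.20 with single samples left out, INSR was -0.0482 with the offset and -0.0869 without replicates 1, 3 and 5, and IGF2R -0.0662 and -0.29. The cause was not tested. Same-numbered samples did not deviate together (r from -0.325 to 0.133), so the numbers were not taken to pair them, and no other member count changed its size by over 1.5 times with the replicate block. IGFBP3 between genotypes after HDW was called with no filter (-0.20, adjusted p = 0.0449). Levels per kilobase were 1 to 1.74 times as high with the longest transcript's length, which changes the order of the members. IGFBP2 in GCN2KO and IGFBP5 in all groups are limited by counts.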
